A study of Mus musculus with 36 samples.

Results

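The genes described here encode the transition zone, the basal body and the carriers that load the membrane of the primary cilium. They were 31 genes picked by name, out of 53421 genes in the count table. All 31 had a row in the counts and in the TPM values (transcript abundance corrected for length and depth), and all 31 passed the filter on low counts in every comparison. By role they were 15 genes of the MKS module of the transition zone, 4 of its NPHP module, 3 of the inversin compartment, 5 of the basal body and distal appendages and 4 of ciliary membrane cargo transport.

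Poly(A) RNA was sequenced from an immortalized mouse fibroblastic chondrocyte line labelled WT. All cells had been transfected with siRNA before they were confluent, at 50 nM by the labels and 10 nM by the study's methods, either a non-targeting pool (NT) or a pool against Ift88 (IFT88siRNA), a subunit of the intraflagellar transport machinery that builds cilia. By the labels they had then reached confluence before the time course, in which they were left untreated (0 h) or exposed to IL-1β (10 ng/ml), with harvests between 1 h and 24 h, which gave 12 conditions with 3 replicates each, 36 libraries in all. The study asked how IL-1β acts on the transcriptome and what depletion of IFT88 changes in that response. Nothing in the labels says that replicates were separate cultures, so the p-values measure the spread between these libraries, which may be technical. It is a single cell line, and RNA came from bulk cultures, so fewer cells with a transcript and less transcript per cell cannot be told apart.

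A primary cilium grows from a basal body that docks to the membrane through its distal appendages. Just above it lies the transition zone, a collar of membrane-spanning and scaffold proteins that decides which proteins enter and leave. The MKS and NPHP modules are its main assemblies, and the inversin compartment is the stretch of axoneme next to it. Lipid-modified proteins reach the ciliary membrane bound to Pde6d, are released by the GTPase Arl3, which Arl13b activates, and include the phosphoinositide phosphatase Inpp5e. Mutations in many of these genes cause Meckel, Joubert and nephronophthisis syndromes.

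Depth ranged from 19337022 to 26873538 counts on genes per library in NT cells and from 21879056 to 38304127 in IFT88siRNA cells. The medians were 2.17e+07 and 2.59e+07, so the IFT88siRNA libraries were deeper. Of 10 chondrocyte markers, Col11a1 (45.2 TPM), Sox9 (11.3 TPM) and Col2a1 (8.35 TPM) were present in NT cells at 0 h, while Acan, Col9a1, Matn3 and Cnmd had means below 1 TPM over all libraries. All 10 fibroblast markers were above 1 TPM. All 6 endothelial, 5 of 6 epithelial and 5 of 8 macrophage markers were below it, Ptprc and Csf1r among them. Above it were the epithelial marker Cdh1 (2.02 TPM) and the macrophage markers Cd68, Lyz2 and Cd14. Cd14 was the highest of its list, at a mean of 20.2 TPM over all libraries. In NT cells the summed macrophage markers went from 20.3 to 24.1 TPM at 0 h to 45.7 to 49.9 TPM at 24 h. The markers did not rise together. Of the 4 tested by edgeR at 24 h, 1 was higher (Cd14) and 1 lower (Lyz2), both past 1.5-fold. Their median log2 change was -0.05, against -0.02 over all genes. Ift88 itself had 9.17, 8.66 and 9.36 CPM, counts scaled to library size, in the NT libraries at 0 h against 2.59, 2.89 and 2.82 CPM in the IFT88siRNA libraries. Its level in IFT88siRNA cells was 23.0% to 36% of the NT mean at the 6 time points, with log2 differences from -2.12 to -1.47 and adjusted p-values of 0.00189 or less.

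Before IL-1β, the members spanned a wide range of abundance. On the length-corrected TPM scale in NT cells at 0 h (mean ± SD, n = 3), Arl3 was the most abundant at 97.3 ± 2.43 TPM. It was followed by Cby1 (56.3 ± 2.71), a small protein of the basal body that helps vesicles dock, and by Pde6d (49.8 ± 0.431). Iqcb1, Tmem237 and Arl13b came next at 45.8 ± 1.68, 44.7 ± 2.72 and 44.2 ± 2.92 TPM, levels that lie within their spread of each other. The carrier Pde6d and the GTPases Arl3 and Arl13b were thus among the 6 most abundant, with Inpp5e lower at 20.7 ± 1.13 TPM. At the bottom were Rpgr (3.12 ± 1.5), Nphp4 (3.06 ± 0.391), Anks6 (2.86 ± 0.507) and Tmem17 (2.47 ± 0.152), whose order was not resolved by the replicates, and Mks1 at 0.695 ± 0.128 TPM. Mks1, which carries a B9 domain, is the gene that names the MKS module, and its values rest on 2 to 38 counts per library.

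IL-1β changed most of the members in NT cells, mostly downwards and by modest amounts. Tested over the 5 time points together, 29 of 31 members passed at an adjusted p under 0.05 (edgeR quasi-likelihood test, Benjamini-Hochberg adjustment over all genes), the exceptions being B9d1 and Tmem17. That share was close to the background, since 88.4% of all 16048 genes tested passed. Requiring also a fold change over 1.5 at some time point left 10 of 31 members against 50.0% of all genes. The members that passed the fold threshold were Mks1, Cby1, Anks6, Tmem231, Inpp5e, Fbf1, Tmem138, Tctn1, Cc2d2a and Tmem67. At 4 h, 18 members were lower and 3 higher, where 29.7% of all genes were lower and 31.2% higher. The median log2 change of the 31 members at 4 h was -0.27, against -0.02 over all genes tested. By role, 7 MKS module genes were lower and 2 higher of 15, 3 of 4 NPHP module genes were lower, 2 of 3 of the inversin compartment, 4 of 5 of the basal body and appendages, and 2 of 4 of the cargo group with 1 higher.

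The skew towards lower levels built up from 1 h and then receded. At 1 h, 10 members were lower and 4 higher (all genes, 25.8% lower and 26.0% higher). At 2 h, 16 were lower and 4 higher (30.2% and 30.7%). At 8 h, 13 were lower and 2 higher (25.3% and 27.1%), and at 24 h, 9 were lower and 2 higher (23.2% and 21.7%). Of the 18 members that were lower at 4 h, all 18 had a smaller absolute change at 24 h, and 6 still passed as lower: Tctn1, Tmem231, Rpgrip1l, Sclt1, Cby1 and Inpp5e. These 18 were picked by their fall at 4 h, which by itself favours a smaller change at another time. No share over all genes is given for this. The largest change from 0 h came at 24 h in 3.23% of members and 13.5% of all genes. The count at 1 h fell from 14 to 9 without the libraries numbered 1 and to 8 without those numbered 2, and the count at 24 h fell from 11 to 7 without those numbered 1. On the TPM values the median of all genes itself shifted by -0.22 at 2 h and at 4 h, and the members split as 11 lower and 1 higher at 1 h, 21 lower and 0 higher at 2 h, and 21 lower and 2 higher at 4 h (limma on log2(TPM + 1)). With upper-quartile scaling the median of all genes was -0.09 at 1 h, and the split was 12 lower and 2 higher. No share of all genes is given for the TPM scale or this scaling, so the shares above are not the background of these splits. The members' median on the TPM scale was -0.40 at 2 h and -0.47 at 4 h, still below the median of all genes.

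**Figure D1:**
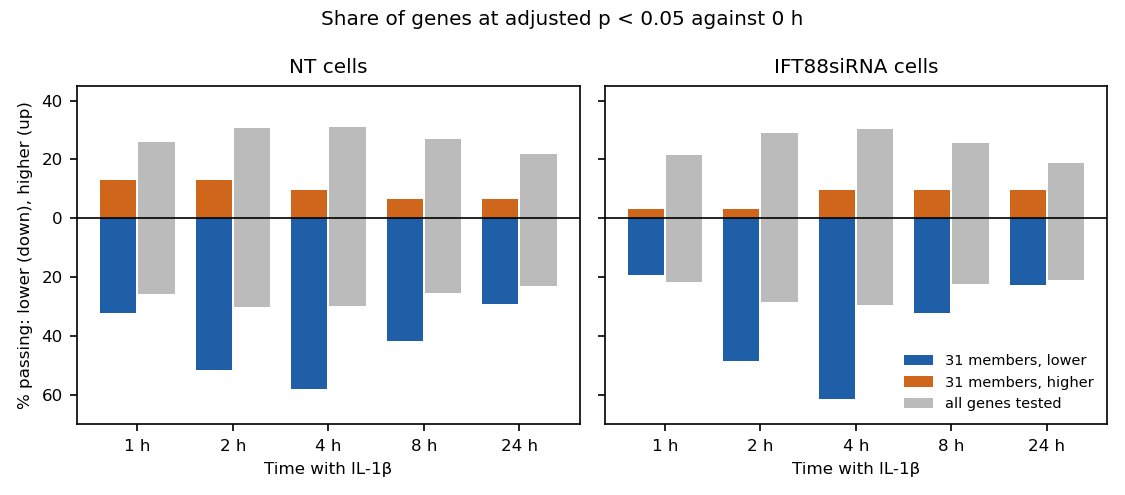
Share of the 31 members (coloured bars) and of all genes tested (grey bars) with an adjusted p under 0.05 against 0 h, in percent, drawn downwards for lower and upwards for higher, at the 5 times after IL-1β (1 h to 24 h) in NT cells (left) and IFT88siRNA cells (right). At 4 h the members' lower bars reach 58.1% and 61.3%, against 29.7% and 29.4% of all genes.

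The IFT88siRNA cells are a separate set of 18 libraries. Over the 5 time points together 28 of 31 members passed (86.0% of 16129 genes tested), and 10 of 31 also exceeded a 1.5-fold change (48.2% of all genes), with Rpgr and Nphp4 in place of Mks1 and Tmem138. At 1 h, 6 members were lower and 1 higher (21.6% of all genes in each direction). At 2 h, 15 were lower and 1 higher (28.5% and 28.9%). At 4 h, 19 were lower and 3 higher (29.4% and 30.4%), with a median of -0.22 against -0.01 over all genes. At 8 h, 10 were lower and 3 higher (22.3% and 25.5%), and at 24 h, 7 were lower and 3 higher (20.9% and 18.9%). Without the libraries numbered 1, the count fell from 7 to 1 at 1 h and from 13 to 6 at 8 h. On the TPM values 9 of 30 members tested were lower and 0 higher at 1 h, and 22 lower and 0 higher at 2 h. On that scale the median of all genes itself moved by -0.13 at 1 h and -0.19 at 2 h, and that of the members by -0.16 and -0.38. DESeq2 size factors gave 15 lower and 3 higher at 2 h. For the TPM scale and these size factors no share of all genes is given beside the counts. Of the 21 members that passed at 4 h in NT cells, all 21 passed in the same direction at 4 h in IFT88siRNA cells. Over all genes tested in both, 8294 of the 9665 that passed in NT cells did so, so such agreement was common.

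**Figure D2:**
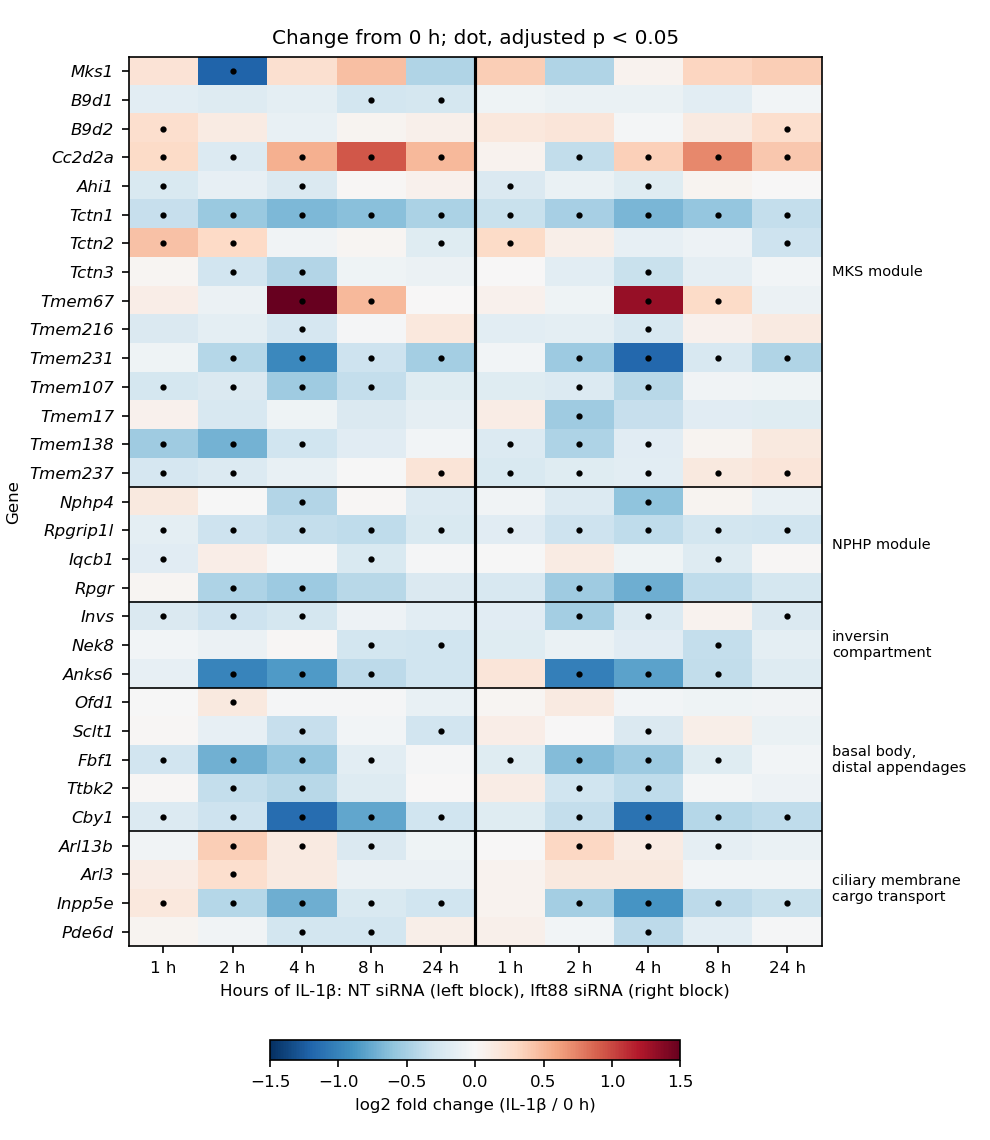
Heat map of the log2 fold change against 0 h (colour, blue lower and red higher) for each of the 31 members (rows, grouped by role) at the 5 times after IL-1β (1 h to 24 h) in NT cells (left block) and IFT88siRNA cells (right block), with a dot where the adjusted p was under 0.05. Tmem67 and Cc2d2a stand out in red, at 4 h and at 8 h, while the columns at 2 h and 4 h are mostly blue in both blocks.

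The 250 bases before the annotated start (RefSeq, GRCm38.p6, 1 window for each gene) were read for 29 of 31 members. 4 of them are shown, picked by name: Cc2d2a as a gene that rose and was highest at 8 h, Tctn2 as a gene that rose at 1 h, and Tmem231 and Nphp4 as genes that fell at 4 h. The choice took in the only members with a kappaB site or an X-box, so the 4 do not stand for all 29. Cby1, Inpp5e, Tctn1 and Fbf1, which also fell at 4 h, had none of the sites searched for. Capitals mark an AP-1 site, taken here as TGANTCA, a kappaB site or an X-box, each searched on both strands. The AP-1 letters allow any base in the middle, which is A in Nphp4 and C in Tmem231. The X-box is the motif bound by the RFX factors of ciliogenesis. Bases that the GENCODE model of the gene already counts as transcribed were left off the end.
Tmem231, chr8:111933882-111934063, minus strand: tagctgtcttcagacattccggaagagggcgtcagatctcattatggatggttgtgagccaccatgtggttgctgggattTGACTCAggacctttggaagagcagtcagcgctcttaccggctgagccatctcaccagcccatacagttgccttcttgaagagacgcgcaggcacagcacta
Nphp4, chr4:152476456-152476705, plus strand: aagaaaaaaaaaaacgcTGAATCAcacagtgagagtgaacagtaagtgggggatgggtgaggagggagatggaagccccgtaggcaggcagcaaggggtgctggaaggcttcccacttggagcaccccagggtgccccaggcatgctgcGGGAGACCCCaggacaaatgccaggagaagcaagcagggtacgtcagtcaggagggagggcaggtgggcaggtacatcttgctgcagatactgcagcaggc
Tctn2, chr5:124598499-124598748, plus strand: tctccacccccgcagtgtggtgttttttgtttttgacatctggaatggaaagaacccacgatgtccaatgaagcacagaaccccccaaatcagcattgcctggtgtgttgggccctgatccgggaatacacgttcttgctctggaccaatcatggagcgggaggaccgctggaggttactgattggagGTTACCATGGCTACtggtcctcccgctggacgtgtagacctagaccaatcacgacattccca
Cc2d2a, chr5:43662129-43662345, plus strand: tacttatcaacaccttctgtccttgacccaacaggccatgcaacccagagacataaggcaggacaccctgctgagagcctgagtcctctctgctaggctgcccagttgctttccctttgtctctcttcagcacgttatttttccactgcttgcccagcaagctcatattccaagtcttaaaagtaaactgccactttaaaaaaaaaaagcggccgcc
An AP-1 site was found in the windows of 3 of 29 members (Nphp4, Rpgr and Tmem231) and in 6.75% of all 32851 windows. All windows include every start listed for a gene, while each member has 1, so these shares rest on unlike sets. A kappaB site was found in 1 member (Nphp4) and in 3.90% of windows, an X-box in 1 member (Tctn2) and in 0.566%, an E-box (CACGTG) in 1 member (Arl3) and in 6.02%, and a cyclic AMP element (TGACGTCA) in none of the members and in 1.55%. No other kind of site was searched for, and a match in these letters is a description only.

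Among the MKS module genes, Tmem67 and Cc2d2a went up while most others that changed went down. Tmem67 (chr4:12039355-12090020, minus strand) encodes meckelin, a membrane-spanning protein of the transition zone. It had 21.4, 24.2 and 22.1 CPM in the NT libraries at 0 h and 63.2, 60.3 and 66.7 CPM at 4 h, with no overlap. In the IFT88siRNA libraries it had 24.7, 23.5 and 22.7 CPM at 0 h and 58.2, 56.3 and 60.8 CPM at 4 h. The rise was confined in time among the points sampled, since the NT libraries were at 20.5 to 21.8 CPM at 2 h, at 31.4 to 31.7 at 8 h and back at 21.5 to 23.4 at 24 h. The log2 change at 4 h was 1.5 ± 0.06 (SE) in NT cells (adjusted p = 2.95e-17) and 1.31 ± 0.06 in IFT88siRNA cells (adjusted p = 2.63e-15). Of its exonic bases 5.42% also belong to other genes, among them Rbm12b2 on the opposite strand, whose own log2 change at 4 h was -0.27 in NT cells and 0.21 in IFT88siRNA cells.

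Cc2d2a (chr5:43662346-43740972, plus strand), a scaffold with a C2 domain at the base of the transition zone, was highest later. Its NT libraries had 23.8, 23.0 and 22.9 CPM at 0 h and 44.3, 44.0 and 44.1 CPM at 8 h, the highest point of its course. The IFT88siRNA libraries had 23.2, 25.3 and 22.6 CPM at 0 h and 38.3, 37.4 and 41.4 CPM at 8 h. All libraries at 8 h were above all libraries at 0 h in both siRNA groups. The log2 change at 8 h was 0.93 ± 0.05 in NT cells (adjusted p = 1.99e-13) and 0.72 ± 0.07 in IFT88siRNA cells (adjusted p = 2.18e-09). It was also higher at 4 h (0.53 and 0.36) and at 24 h (0.49 and 0.41), and at 1 h in NT cells (0.29 ± 0.06), but lower at 2 h, by -0.20 ± 0.06 in NT cells and -0.37 ± 0.07 in IFT88siRNA cells. The NT value at 2 h was -0.16 without the libraries numbered 1, with an adjusted p of 0.0915, and on the TPM scale the rise at 4 h in IFT88siRNA cells was 0.13 with an adjusted p of 0.160 and that at 1 h in NT cells was 0.13 with an adjusted p of 0.0908. The next gene to the right is Fbxl5, 3643 bases away on the opposite strand and facing Cc2d2a. Fbxl5 rose by 2.24 ± 0.05 on the log2 scale at 4 h and 1.6 ± 0.05 at 8 h in NT cells. The counting was without regard to strand, and any part of the neighbour in the Cc2d2a values was not tested.

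Tmem231 (chr8:111912011-111933881, minus strand), another membrane protein of the MKS module, moved the other way. It had 17.8, 18.3 and 19.4 CPM at 0 h and 10.1, 8.49 and 9.73 CPM at 4 h in the NT libraries. In the IFT88siRNA libraries it went from 18, 18.8 and 19 CPM to 7.97, 8.60 and 8.11 CPM. The groups did not overlap, and the log2 change was -0.97 ± 0.09 (adjusted p = 7.03e-10) and -1.18 ± 0.08 (adjusted p = 8.21e-12). It was near its starting level at 1 h and still lower at 24 h in both groups, by -0.51 and -0.46.

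Tctn1 (chr5:122237848-122264460, minus strand), a tectonic, was lower throughout the course. It had 35.0, 32.0 and 32.7 CPM at 0 h and 20.4, 20.9 and 20.8 CPM at 4 h in the NT libraries, and 32.2, 31.9 and 30.5 CPM against 20.8, 18.7 and 19.1 CPM in the IFT88siRNA libraries. It passed as lower at all 5 time points in both groups, with the log2 change at 4 h at -0.67 ± 0.06 (adjusted p = 6.31e-10) and -0.69 ± 0.07 (adjusted p = 1.21e-08). Of its exonic bases 25.5% are shared with other genes, Hvcn1 and Gm15481, both on the opposite strand. Hvcn1 was lower too at 4 h, by -0.57 ± 0.17 in NT cells, but higher at 1 h, by 1.51 ± 0.13. Its sister genes behaved otherwise. Tctn2 rose at 1 h, by 0.45 ± 0.07 in NT cells and 0.29 ± 0.08 in IFT88siRNA cells, and was lower at 24 h, by -0.18 and -0.31. The rise of Tctn2 in IFT88siRNA cells and both falls at 24 h were lost without the libraries numbered 1. Tctn3 was lower at 4 h, by -0.43 and -0.33.

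Tmem138 had the largest fall of any member at 1 h in NT cells. It encodes a membrane protein of the transition zone whose gene lies 14240 bases from its partner Tmem216 on chromosome 19. The NT libraries had 22.1, 21.6 and 21.9 CPM at 0 h, 15.2, 16.0 and 14.3 CPM at 1 h and 11.3, 14.4 and 14.4 CPM at 2 h. The IFT88siRNA libraries had 19.6, 20.1 and 18.4 CPM at 0 h and 13, 14.2 and 15 CPM at 2 h. The log2 change at 2 h was -0.71 ± 0.08 (adjusted p = 3.62e-08) and -0.47 ± 0.07 (adjusted p = 2.17e-06), without overlap in either group. By 24 h the NT libraries were back at 21.1 to 21.3 CPM. Of the exonic bases of Tmem138, 8.09% are shared with Cyb561a3 on the opposite strand, which was lower by -0.40 at 2 h and -0.90 at 4 h in NT cells. The partner Tmem216 did not pass at 1 h or 2 h in either group and was lower at 4 h, by -0.25 and -0.24, calls that were lost without the libraries numbered 1.

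Mks1 passed at 1 single time point, 2 h in NT cells, with 1.10, 0.577 and 0.710 CPM at 0 h and 0.104, 0.547 and 0.355 CPM at 2 h. Its log2 change was -1.20 ± 0.42 (adjusted p = 0.0161), and the lowest library held 2 counts of it. Without the libraries numbered 1 the change was -0.51 with an adjusted p of 0.298, so this call rested on them, and in IFT88siRNA cells it was -0.46 with an adjusted p of 0.304. The remaining MKS genes moved by less than 1.5-fold. Tmem107 was lower at 4 h by -0.54 and -0.42, Ahi1 by -0.22 and -0.19, and Tmem237 was lower at 1 h and 2 h and higher at 24 h in both groups, by 0.19 and 0.18. Without the libraries numbered 1 the calls of Ahi1 at 4 h and Tmem237 at 1 h and 2 h in IFT88siRNA cells were lost, as was that of Tmem237 at 24 h in NT cells. The B9-domain genes B9d1 and B9d2 stayed within 0.28 of their 0 h level on the log2 scale at every time point in both groups.

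The NPHP module, a scaffold deeper in the transition zone, showed no higher member at any time point in either group. Rpgrip1l, which anchors other transition zone proteins, passed as lower at all 5 time points in both, with a largest log2 change of -0.38 in each. Its calls at 1 h were lost without the libraries numbered 1, and in NT cells none of its calls held on the TPM scale, where the changes kept their direction. Rpgr, a GTPase regulator mutated in retinitis pigmentosa, had 2.62, 4.12 and 4.70 CPM at 0 h and 2.27, 3.12 and 2.29 CPM at 4 h in the NT libraries, which overlap. In the IFT88siRNA libraries it had 3.89, 3.38 and 4.24 CPM at 0 h and 2.46, 2.52 and 1.98 CPM at 4 h, which do not. Its log2 change at 4 h was -0.55 ± 0.19 in NT cells (adjusted p = 0.0162) and -0.73 ± 0.18 in IFT88siRNA cells (adjusted p = 0.00119). Without the libraries numbered 3 the NT change was -0.30 with an adjusted p of 0.305. Nphp4, a nephrocystin scaffold, had 7.73, 8.91 and 7.14 CPM at 0 h and 6.06, 5.74 and 5.63 CPM at 4 h in the NT libraries. In the IFT88siRNA libraries it had 7.74, 7.6 and 7.2 CPM at 0 h and 4.36, 5.24 and 5.17 CPM at 4 h. Neither pair of groups overlapped, and the log2 change was -0.44 ± 0.11 (adjusted p = 0.00128) and -0.61 ± 0.12 (adjusted p = 9.76e-05). Without the libraries numbered 2, the NT change was -0.34 with an adjusted p of 0.0528. Iqcb1 was lower at 8 h in both groups, by -0.23 and -0.19, calls that were lost without the libraries numbered 3 in NT cells and those numbered 1 in IFT88siRNA cells.

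In the inversin compartment, Anks6, the ankyrin-repeat partner of the kinase Nek8, showed the largest change. It had 4.18, 3.79 and 3.50 CPM at 0 h and 1.98, 2.1 and 1.73 CPM at 2 h in the NT libraries. The IFT88siRNA libraries had 4.02, 3.31 and 3.56 CPM at 0 h and 1.8, 1.92 and 1.65 CPM at 2 h. There was no overlap in either group, and the log2 change was -0.99 ± 0.16 (adjusted p = 1.09e-05) and -1.02 ± 0.15 (adjusted p = 3.01e-06). It remained lower at 4 h (-0.85 and -0.81). Invs, which encodes inversin, was lower at 2 h by -0.31 and -0.51, and passed in both groups whichever replicate number was left out. Nek8 was lower at 8 h by -0.27 and -0.35, and both Nek8 calls were lost without the libraries numbered 1.

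Cby1, of the basal body group, had the largest fall at 4 h of any member in NT cells. Cby1 (chr15:79659199-79667660, plus strand) had 29.3, 29.8 and 31.9 CPM at 0 h and 14.6, 13.4 and 13.1 CPM at 4 h in the NT libraries. In the IFT88siRNA libraries it had 31.6, 31 and 31.4 CPM at 0 h and 16.7, 13.8 and 12.9 CPM at 4 h. The log2 change was -1.14 ± 0.07 (adjusted p = 5.35e-13) and -1.11 ± 0.08 (adjusted p = 2.24e-11), with no overlap. At 8 h it was lower by -0.78 ± 0.07 in NT cells and by -0.43 ± 0.08 in IFT88siRNA cells, and at 24 h by -0.29 and -0.39. Fam227a, whose start lies 243 bases from that of Cby1 on the opposite strand, was lower at 4 h as well, by -1.92 ± 0.20 and -1.34 ± 0.18, while Tomm22 on its other side changed by -0.10 and -0.02 without passing.

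Fbf1, a protein of the distal appendages that gate the ciliary base, had 61.0, 58.6 and 54.6 CPM at 0 h and 36.5, 35.5 and 33.9 CPM at 2 h in the NT libraries. The IFT88siRNA libraries went from 55.1, 59.5 and 52.7 CPM to 34.3, 36.1 and 35.9 CPM. The log2 change was -0.72 ± 0.05 (adjusted p = 2.51e-11) and -0.66 ± 0.06 (adjusted p = 2.06e-09), again with no overlap, and by 24 h the NT libraries were back at 56.1 to 58.6 CPM. Ttbk2, the kinase that starts ciliogenesis at the mother centriole, was lower at 4 h by -0.42 and -0.38. Of its exonic bases 29.9% are shared with Cdan1 on the same strand, which was itself lower by -1.07 ± 0.08 and -0.88 ± 0.08. Sclt1, another appendage protein, was lower at 4 h by -0.34 and -0.22, the latter call being lost without the libraries numbered 1 or 3. Ofd1, a protein of centrioles and their satellites, was higher at 2 h in NT cells by 0.15 ± 0.05, a change that turned to -0.07 on the TPM scale.

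Members of the membrane cargo group did not move together. Inpp5e (chr2:26396249-26409203, minus strand) had 32.1, 28.1 and 29.1 CPM at 0 h and 17.7, 18.1 and 17.4 CPM at 4 h in the NT libraries, and 33.6, 35.9 and 32.8 CPM against 18.6, 18.8 and 18.2 CPM in the IFT88siRNA libraries. The log2 change was -0.73 ± 0.06 (adjusted p = 2.85e-10) and -0.88 ± 0.07 (adjusted p = 8.13e-11), with no overlap. Its exons share 20.3% of their bases with Pmpca on the opposite strand, which changed by 0.04 and 0.07 at 4 h without passing. At 1 h in NT cells it was higher by 0.16 ± 0.06, but by -0.25 on the TPM scale, where the sign was reversed. Arl13b was higher at 2 h by 0.37 ± 0.05 and 0.31 ± 0.05, where the TPM scale gave 0.16 and 0.11 without passing, and lower at 8 h by -0.22 and -0.14. The call at 8 h in IFT88siRNA cells was lost without the libraries numbered 1 or 3. Its rise at 4 h (0.13 in each group) turned to -0.05 and -0.04 on the TPM scale. Arl3, the release factor, passed at 1 single time point, 2 h in NT cells, at 0.25 ± 0.06, which was -0.02 on the TPM scale. The carrier Pde6d was lower at 4 h, by -0.27 and -0.39.

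**Figure D3:**
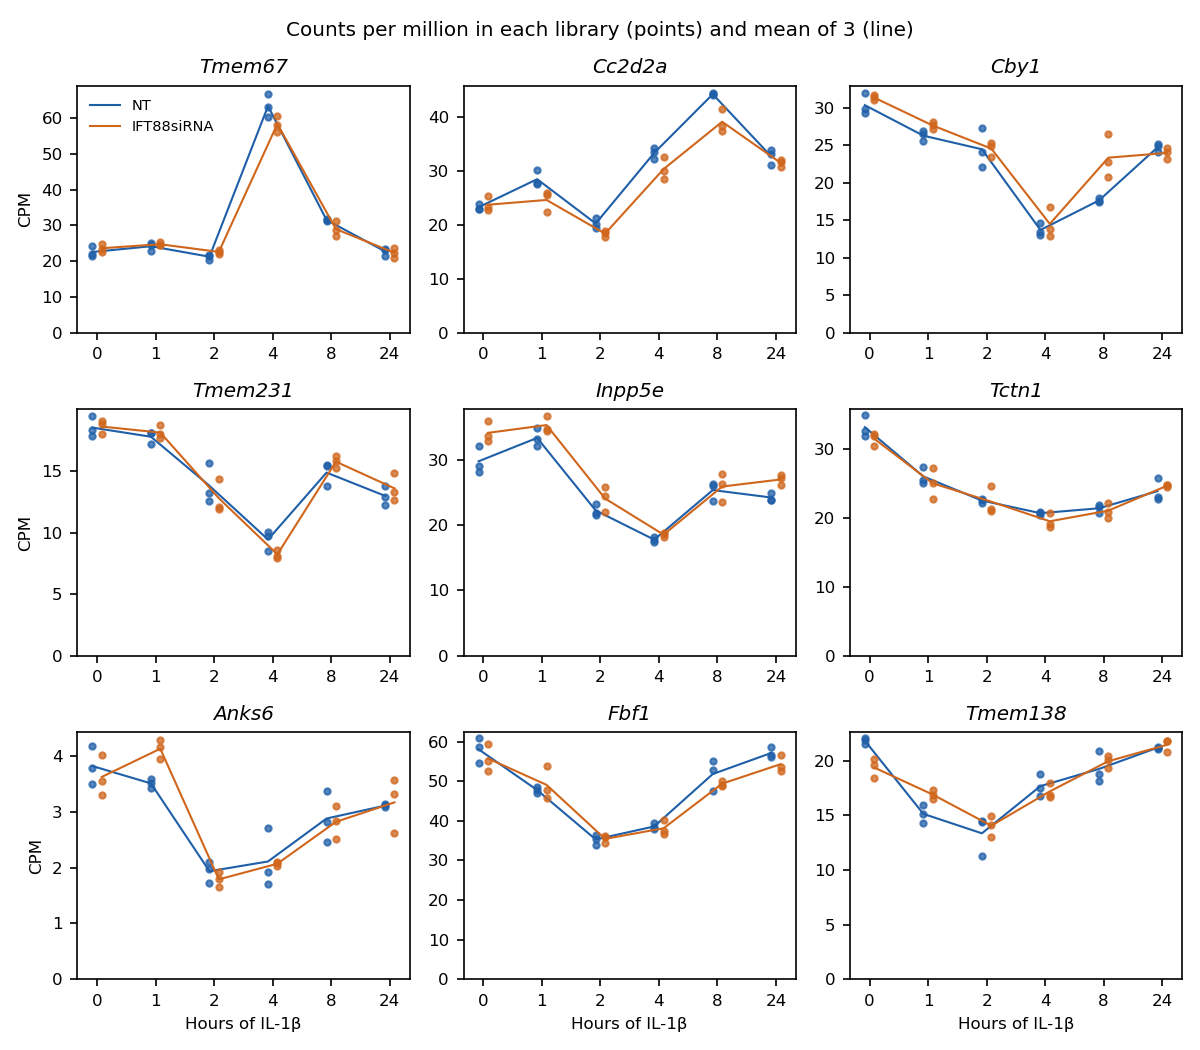
CPM in each of the 3 libraries per condition (points) and their mean (line) for 9 members at the 6 time points from 0 h to 24 h of IL-1β, in NT cells (blue) and IFT88siRNA cells (orange), with every vertical axis starting at 0. Tmem67 peaks at 4 h, at 56.3 to 66.7 CPM, and Cc2d2a at 8 h, and the other 7 members have their low point at 2 h or 4 h.

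At 4 h, 30 of the 31 members changed with the same sign in both siRNA groups, as had 87.5% of the 15825 genes tested in both. Pearson's r of the log2 changes was 0.97 over the 31 members and 0.94 over all genes, as a description across genes, which are not independent replicates. At 24 h, where the changes were smaller, r was 0.65 over the members and 0.91 over all genes, and 25 of 31 members (80.6%) had the same sign against 82.7% of all genes. The 2 courses share no library.

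**Figure D4:**
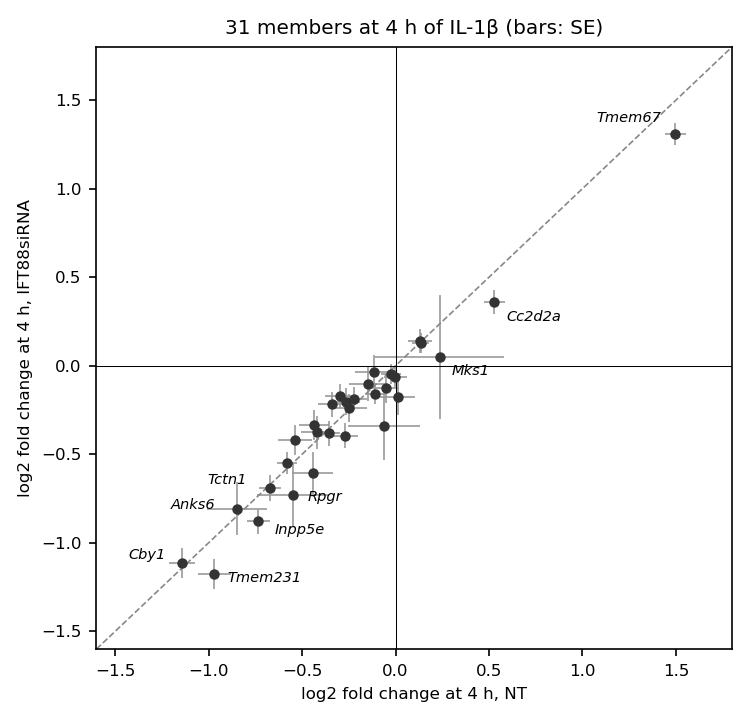
Log2 fold change at 4 h of IL-1β in NT cells (horizontal axis) and in IFT88siRNA cells (vertical axis) for the 31 members (points, with bars of 1 SE) and the line of equal change (dashed). Tmem67 lies at 1.5 and 1.31, Cby1 and Tmem231 near -1 in both, and Mks1 has the widest bars.

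A list of 20 other transition zone and appendage genes, of which 19 were tested, was counted in the same way. At 4 h, 12 were lower and 2 higher in NT cells, and 13 lower and 1 higher in IFT88siRNA cells, with medians of -0.25 in each, where 29.7% and 29.4% of all genes were lower and 31.2% and 30.4% higher. The genes past a 1.5-fold change in both groups at 4 h were Tmem218 (-0.97 and -1.18), Cep164 (-0.87 and -0.78), Cep97 (-0.81 and -0.67) and Cep89 (-0.73 and -0.70), of which Cep164 and Cep89 belong to the distal appendages. At 2 h, Cep97, which caps the mother centriole together with Ccp110, was lower by -1.46 ± 0.08 and -1.53 ± 0.08. Cell cycle genes moved over the same hours. Of 15 on the list, 11 were lower and 3 higher at 4 h in NT cells, and 10 lower and 1 higher in IFT88siRNA cells. In NT cells their summed level went from 3254 to 3297 TPM at 0 h to 2280 to 2333 TPM at 4 h and 3254 to 3301 TPM at 24 h. In IFT88siRNA cells it went from 3185 to 3301 TPM at 0 h to 2339 to 2412 TPM at 4 h. The part of cell cycle state in the members' changes was not tested.

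The differences between IFT88siRNA and NT cells were small. Compared at each time point, 3 libraries against 3, no member differed by 1.5-fold with an adjusted p under 0.05, at any of the 6 time points. Before IL-1β, 3 of 31 members passed (19.5% of 15274 genes tested). Tctn2 had 0.21 ± 0.06 and Inpp5e 0.20 ± 0.06 as log2 difference, IFT88siRNA minus NT, and Ttbk2 -0.20 ± 0.07, with adjusted p-values of 0.0178, 0.0242 and 0.0390. Ttbk2 did not pass with DESeq2 (adjusted p = 0.0639), and neither Ttbk2 (0.144) nor Tctn2 (0.0577) passed in the edgeR fit of all 36 libraries. At 1 h another 3 passed (19.0% of all genes), Iqcb1 at 0.21 ± 0.06, Cc2d2a at -0.22 ± 0.07 and Nek8 at -0.24 ± 0.08. At 2 h (2.76% of all genes) and at 4 h (3.85%) the edgeR test passed 0 of 31, with 2 and 4 members at an unadjusted p under 0.05, and DESeq2 passed 0 at both, while the fit of all 36 libraries passed 1 at each. At 8 h only Cby1 passed (4.25% of all genes), and at 24 h only Ttbk2 (8.66%), at -0.29 ± 0.07 with an adjusted p of 0.0220, which was 0.0540 without the libraries numbered 2.

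Most of these calls were lost when replicates were left out. Each such fit had fewer libraries, so a call could be lost without a smaller difference. Leaving out the libraries of 1 number took the count at 0 h from 3 to 2, 1 and 0 (without those numbered 1, 2 and 3), and the count at 1 h from 3 to 0 without those numbered 1 and to 1 without those numbered 2 or 3. On the TPM scale, where 30 or 31 members were tested, none passed at any time point by limma, and Inpp5e at 0 h was -0.05. The same limma test did not pass the targeted Ift88 at 4 h (-1.35, adjusted p = 0.113) or at 8 h (-1.62, adjusted p = 0.0989). Its lack of calls therefore cannot decide whether members differed. Cby1 at 8 h had the largest difference among the calls. It had 18, 17.4 and 17.5 CPM in the NT libraries and 22.8, 26.4 and 20.8 CPM in the IFT88siRNA libraries, with no overlap, a log2 difference of 0.39 ± 0.09 and an adjusted p of 0.0335. Without the libraries numbered 2 the difference was 0.28 with an adjusted p of 0.333, and without those numbered 1 it was 0.43 with an adjusted p of 0.171.

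Tested over all 6 time points together in the 36 libraries, 8 of 31 members (25.8%) differed between the siRNA groups, against 31.8% of all 16710 genes tested, and 0 of 31 by over 1.5-fold (5.19% of all genes). They were Tmem237, Cc2d2a, Cby1, Pde6d, Inpp5e, Ttbk2, Invs and Iqcb1. In this fit their largest log2 differences at any time point ran in size from that of Tmem237, -0.19, to that of Cby1, 0.41. Tmem237 had the smallest adjusted p (0.000932). It had 31.4, 34.0 and 31.9 CPM in NT against 30.5, 27.3 and 30.1 CPM in IFT88siRNA libraries at 0 h, and 36, 39 and 36.1 against 32.9, 34.1 and 32.7 CPM at 24 h. The count of 8 fell to 1, 0 and 4 without the libraries numbered 1, 2 and 3.

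**Figure D5:**
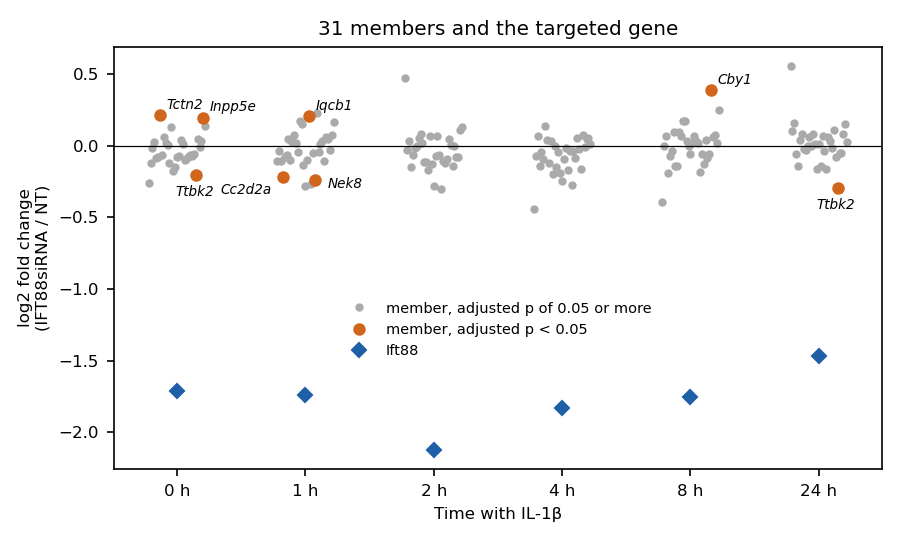
Log2 difference between IFT88siRNA and NT cells (vertical axis) at the 6 time points from 0 h to 24 h of IL-1β (horizontal axis) for the 31 members (grey points, orange and named where the adjusted p was under 0.05) and for Ift88 (blue diamonds). Ift88 lies between -2.12 and -1.47, while the named members lie between -0.29 and 0.39.

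Whether the response to IL-1β itself differed between the siRNA groups was tested with the interaction over the 5 time points. In the edgeR test 0 of 31 members passed (5.53% of all 16710 genes), and 2 had an unadjusted p under 0.05, Cby1 and Tmem138. The smallest adjusted p was that of Cby1 at 0.0533, followed by Tmem138 at 0.278 and Tmem67 at 0.307. For Cby1 the largest difference in response was 0.36 on the log2 scale, IFT88siRNA minus NT, at 8 h, where it was less reduced in IFT88siRNA cells. Its adjusted p was 0.0275 with DESeq2, 0.0202 without the filter on low counts and 0.0309 with a replicate block, so it passed in those fits, and it was 0.401 without the libraries numbered 1 and 0.66 without those numbered 2. For Tmem138 the largest difference was 0.33, at 1 h, and for Tmem67 -0.19.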

How the data were processed

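The data were RNA-seq of 36 libraries, 3 for each of 12 conditions, and no table column was left unmapped. The authors aligned paired-end poly(A) reads to GRCm38 with HISAT2 2.1.0, counted them on Ensembl genes with featureCounts (Subread 1.6.3) and deposited raw counts per gene. The authors also deposited TPM from Salmon 0.9.1. The default counting settings disregard strand and leave out reads that overlap several genes, so genes that share exons lose reads. Here counts were tested with edgeR 4.0.16 (R 4.3.3): filterByExpr, TMM scaling, quasi-likelihood test, Benjamini-Hochberg adjustment over all genes tested, within NT, within IFT88siRNA, at each time point, and as an interaction over all libraries. SE was the log2 change divided by the square root of F. Members passed at an adjusted p under 0.05. The value given for a test over several time points is the largest single difference. TPM was tested with limma 3.58.1 on log2(TPM + 1), keeping genes at 1 TPM or more in 3 libraries, which understates changes of low genes. DESeq2 1.42.0 and other settings were alternatives. The analysis was tested on simulated data. Gene positions came from GENCODE M21, which held 53274 of the 53421 gene IDs. The range of depth in each siRNA group is given in the report, and CPM errors cover these libraries only. Replicate numbers were checked for pairing: deviations of same-numbered libraries correlated at -0.45 to 0.65 (median 0.035), so they were not used as pairs in the main test. No replicate pair was a duplicate (chi-square per degree of freedom 1.71 or more). Values in every library are given for members that passed with a fold over 1.5 in a contrast, and for the 3 with the smallest p over all time points in NT cells, between siRNA groups or in the response. The members and lists were chosen with earlier results of these data known.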

Additional observations from a re-analysis of the deposited data

How the results depend on the processing

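Over 163 tested changes of single members or Ift88, 1725 values under other settings gave 1474 with the same direction and side of the threshold, 238 that no longer passed and 13 that changed sign. The sign changed on the TPM scale, with pseudocounts of 1 and 0.1: Inpp5e at 1 h in NT cells (-0.25 and -0.26), Tctn2 (-0.025 and -0.026), Ofd1 (-0.071 and -0.075) and Arl3 (-0.0167 and -0.0168) at 2 h in NT cells, Arl13b at 4 h in NT cells (-0.049 and -0.0497) and in IFT88siRNA cells (-0.043, pseudocount 1), and Inpp5e between siRNA groups at 0 h (-0.049 and -0.051). The cause was not tested. Requiring a 1.5-fold change left 10 members in NT cells over all time points and, by time point in order from 1 h, 0, 4, 6, 3 and 0. In IFT88siRNA cells it left 10 members, and 0, 2, 8, 1 and 0 by time point. Over all time points together it left 50.0% of all genes in NT cells and 48.2% in IFT88siRNA cells. No share of all genes is given for single time points, so those counts cannot be called many or few. Between siRNA groups the 1.5-fold threshold left 0 members over all time points and 0 at 0, 1, 8 and 24 h.

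Leaving out the libraries of 1 replicate number gave 8 to 11 members at 1 h (9 without number 1) and 7 to 9 at 24 h in NT cells, and 1 to 5 at 1 h and 6 to 12 at 8 h in IFT88siRNA cells. Between siRNA groups it gave 0 to 4 over all time points (1 without number 1), 0 to 2 at 0 h, 0 to 1 at 1 h, 0 to 3 at 8 h and 0 to 2 at 24 h. Fewer libraries were fitted in each case. Upper-quartile scaling gave 11 members at 1 h in IFT88siRNA cells. Between siRNA groups, limma on TPM gave 4 members over all time points (pseudocount 1) and 0 at 0, 1, 8 and 24 h with either pseudocount, DESeq2 gave 1 at 1 h, and fitting without the filter on low counts gave 1 at 2 h, 1 at 4 h and 2 at 8 h. One model of all 36 libraries gave 1, 1, 1, 3 and 2 at 0, 2, 4, 8 and 24 h. For the difference in response, DESeq2 and the fit without a filter gave 1 member each. Shares of all genes are not given for these settings or for the replicate block below, so their counts cannot be called many or few.

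The labels do not say whether the numbers pair the libraries. Correlations of same-numbered libraries had a median of 0.035 but ranged from -0.45 to 0.65, which does not settle it. With a replicate block, 5 members passed between siRNA groups at 1 h, 1 at 2 h and 1 for the difference in response, other counts stayed within 1.5 times, and the call of Ttbk2 at 0 h was lost (adjusted p = 0.0610). Depth limits Mks1 most, at 2 to 38 counts per library.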

Other observations

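Transcription factors of the RFX and GLI families and Foxj1, of which 9 of 10 were tested, were also counted in these libraries. At 4 h of IL-1β, 5 were lower and 1 higher in NT cells, and 6 lower and 1 higher in IFT88siRNA cells (edgeR, adjusted p under 0.05), where 29.7% and 29.4% of all genes were lower and 31.2% and 30.4% higher. Gli2, a transcription factor of hedgehog signalling, was lower at 4 h by -1.17 ± 0.15 (SE) and -1.39 ± 0.13 on the log2 scale. Rfx7, an RFX factor, was lower by -0.79 ± 0.05 in NT cells, while Rfx5, which acts on MHC class II genes, was higher by 0.74 ± 0.06 and 0.63 ± 0.06. Foxj1, a regulator of motile cilia, was lower at 24 h by -1.16 ± 0.20 and -0.90 ± 0.19.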
